A study of Bos taurus with 28 samples.

Results

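The SREBP and nuclear receptor lipid regulators are 10 genes that set how much fat and cholesterol a cell makes: SREBF1, SREBF2, SCAP, INSIG1, INSIG2, NR1H2, NR1H3, PPARG, PPARGC1A and RXRA. Their members on the array were all probe sets to which the platform annotation gave exactly 1 gene symbol among these 10. That rule found 23 of the 24016 probe sets tested, and 10 of the 9155 genes they name. SREBF1, SCAP and PPARGC1A had 4 probe sets each, INSIG2 had 3, SREBF2 and NR1H3 had 2, and INSIG1, NR1H2, PPARG and RXRA had 1. The samples were mammary gland biopsies of 28 Holstein-Friesian cows in mid-lactation (153 ± 32.8 days in milk over the whole study), 1 array of the Affymetrix Bovine Genome type per cow. On this array several short probes, a probe set, read 1 transcript. All cows were on the control diet, a mixed ration of silages and concentrates. They differed in whether their DGAT1 alleles encode alanine (A) or lysine (K) at 1 residue of the enzyme, which carries out the last step of triglyceride synthesis: 11 cows were AA, 13 were KA and 4 were KK. Each array is 1 cow and 1 surgical biopsy.

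SREBF1 and SREBF2 encode transcription factors that are made as membrane proteins of the endoplasmic reticulum. SCAP, a sterol sensor, escorts them to the Golgi, where proteases free the active part, and INSIG1 and INSIG2 hold SCAP back when sterols are plentiful. SREBF1 products mainly drive fatty acid synthesis and SREBF2 mainly cholesterol synthesis. NR1H3 (LXR alpha) and NR1H2 (LXR beta) are receptors for oxidised sterols and PPARG is a receptor for fatty acids. Each of these receptors binds DNA together with RXRA, and PPARGC1A is a coactivator of PPARG and of other factors. In the lactating gland this network is known for its part in milk fat synthesis. The arrays measured messenger RNA, not the release of the active SREBP proteins.

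Each value is a log2 value from which the authors had subtracted a baseline of its probe set, so a value of 1 is a doubling over that baseline, values can be compared between cows, and levels of different genes cannot. A class of brightness could still be read from the rounding steps of the deposited values: 2077 of the 24016 probe sets fell in the bright class, 13801 in the intermediate and 8138 in the dim one. Of the 12 listed markers of milk secreting cells 10 were in the bright class. Of the 23 probe sets of the regulators 3 were bright (2 of SREBF1 and that of INSIG1), 16 intermediate and 4 dim, and all were tested. Where a gene had several probe sets, 1 of the brightest class stood for it, called the leading one here, and the others are given too. The AA cows numbered 2 and 9 stood apart from the other 26 arrays. Their values had an SD over all probe sets of 0.861 and 0.781, against 0.213 to 0.348 in the other 26. On these arrays the 9 measured fibroblast and matrix markers averaged 1.22 and 1.68, against -0.55 to 0.47 in the other AA cows, and the 12 milk secreting markers averaged -0.61 and -1.12, against -0.20 to 0.17. AA 2 and AA 9 also held the highest and the lowest difference between the 3′ and 5′ probe sets of the GAPDH control, 1.33 and -0.66. AA 11, kept among the 26, had 0.97. For the actin control AA 2 (-0.14) and AA 9 (-0.21) lay within the range of the others, -0.28 to 0.46. In a biopsy, fewer cells of a type and less RNA per cell cannot be told apart. The array numbers in the sample titles were also spread unevenly over the genotypes. In the range 29 to 42 there were 8 AA, 2 KA and 4 KK cows, and in 43 to 56 there were 3 AA and 11 KA cows but 0 KK. Results are therefore given with all 28 arrays and with the 26.

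INSIG1 had the widest range among the members over all 28 arrays. Over the 26 it ran from -0.89 to 1.00, and the second probe set of PPARGC1A ran wider, from -1.52 to 1.09, as did the third of SREBF1, from -0.38 to 1.72. In the 4 KK cows its values were 0.84, 0.91, 0.70 and -0.05. The 13 KA cows ran from -0.36 to 1.00 with a median of 0.24. Of the 11 AA cows the lowest was -2.84 (AA 9), the median 0.02 and the highest 0.54, and AA 2 stood at -1.95. Of the KK cows 3 were above every AA cow, KK 4 lay among the AA cows, and KK and KA overlapped. The means were -0.42 ± 1.09 (SD, n = 11) in AA, 0.24 ± 0.42 (n = 13) in KA and 0.60 ± 0.44 (n = 4) in KK. KK exceeded AA by 1.01 (SE 0.42), a 2.02-fold difference, with an unadjusted p of 0.0226 in limma and an exact two-sided permutation p of 0.0293, and after Benjamini-Hochberg adjustment over all probe sets limma's p was 0.909. Without AA 2 and AA 9 the AA mean was 0.02 ± 0.49 (n = 9) and the difference was 0.57 (SE 0.25), with an exact permutation p of 0.0559. Within array numbers 29 to 42, the only range that held KK cows, KK exceeded AA by 0.76 (exact permutation p = 0.0444), and by 0.51 without AA 2 (exact permutation p = 0.0667). KA exceeded AA by 0.65 (SE 0.29; limma adjusted p = 0.209) over all arrays and by 0.21 (SE 0.18; limma adjusted p = 0.753) without the pair. Within numbers 29 to 42 and 43 to 56 the KA minus AA difference was 0.44 and 1.32, and 0.19 and 0.44 without the pair, with as few as 2 cows in a group.

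SREBF1, the regulator of fatty acid synthesis, was next. In the KK cows its leading probe set read 0.59, 0.80, 0.42 and 0.31. The KA cows ran from -0.28 to 1.09 with a median of 0.53, and the AA cows from -1.38 (AA 9) to 0.61 with a median of 0.11. All 4 KK cows were above the AA mean, with or without AA 2 (-1.16) and AA 9, and all 4 lay within the range of the KA cows. The group means were -0.09 ± 0.65 (SD, n = 11) in AA, 0.38 ± 0.39 (n = 13) in KA and 0.53 ± 0.22 (n = 4) in KK. KK minus AA was 0.62 (SE 0.27; exact permutation p = 0.0293, limma adjusted p = 0.909) over all arrays and 0.36 (SE 0.19; exact permutation p = 0.0559) over the 26. Within numbers 29 to 42 it was 0.58, and 0.42 without AA 2 (exact permutation p = 0.0424). KA minus AA was 0.47 (SE 0.19; limma adjusted p = 0.183) and 0.21 over the 26, and without the pair it was 0.01 within numbers 29 to 42 and 0.04 within 43 to 56.

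The 4 probe sets of SREBF1 did not read alike. The first 3 moved together over the 26 arrays, with Pearson r of 0.67 to 0.88 between them, and the fourth, of the dim class, had r of -0.08 to 0.19 with the others. The second probe set of SREBF1 gave the smallest p of the 23 for KK minus AA: 0.79 (SE 0.31; exact permutation p = 0.0132; limma adjusted p = 0.909), and 0.47 (SE 0.19; exact permutation p = 0.0252) without AA 2 and AA 9. The third gave 0.68 for KK minus AA and 0.74 for KA minus AA, and 0.39 and 0.46 without the pair. For it the KA mean of 0.72 ± 0.63 was above the KK mean of 0.65 ± 0.16. The dim probe set gave 0.09 for KK minus AA and 0.30 for KA minus AA, and 0.0022 and 0.21 without the pair.

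SREBF2, the regulator of cholesterol synthesis, differed less. The KK cows read -0.02, 0.20, 0.33 and -0.04, the KA cows -0.14 to 0.63 with a median of 0.22, and the AA cows -0.85 to 0.44 with a median of 0.02, so the groups overlapped throughout. AA 2 (-0.85) and AA 9 (-0.62) were below all other cows, whose lowest value was -0.14. KK minus AA was 0.17 (95% interval -0.18 to 0.52) over all arrays and 0.02 (-0.25 to 0.28) over the 26. KA minus AA was 0.26 and 0.10 (-0.07 over the 26 with the range of array numbers as a block). Its second probe set gave 0.24 for KA minus AA, and 0.15 over the 26, and correlated with the first at r = 0.30 over the 26 arrays.

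SCAP, the escort of the SREBP proteins, read 0.00, 0.04, -0.21 and -0.21 on its leading probe set in the KK cows, -0.30 to 0.25 with a median of 0.03 in KA and -0.47 to 0.36 with a median of -0.10 in AA. It showed differences between KK and AA of 0.00 to 0.15 over its 4 probe sets with all arrays and of -0.08 to 0.04 without AA 2 and AA 9. Its KA minus AA difference was largest on the second of them, at 0.28 (SE 0.11; limma adjusted p = 0.163), and 0.17 without the pair. The 4 SCAP probe sets correlated with each other at r of 0.15 to 0.44 over the 26 arrays.

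INSIG2, the second anchor of SCAP, did not follow INSIG1. On its leading probe set the KK cows read -0.04, -0.09, -0.43 and -0.13, the KA cows -0.45 to 0.42 with a median of -0.09, and the AA cows -0.71 (AA 11) to 0.19 with a median of -0.11. KK minus AA was -0.02 (95% interval -0.33 to 0.29). Its second probe set was the 1 member that was lower in KA than in AA at an unadjusted p under 0.05: -0.22 ± 0.24 (SD, n = 13) against 0.08 ± 0.28 (n = 11), a difference of -0.30 (SE 0.11; limma adjusted p = 0.154) with 12 of 13 KA cows below the AA mean, and -0.27 without AA 2 and AA 9. That difference was 0.11 within numbers 29 to 42 (2 KA against 8 AA cows) and -0.58 within 43 to 56 (11 against 3; -0.42 without AA 9), so it did not keep its direction within both ranges. On the third of its probe sets, AA 2 (0.53) and AA 9 (0.60) were above all 26 other cows, whose highest value was 0.17.

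None of the receptors passed the adjusted threshold in any genotype comparison. NR1H2 read -0.02, 0.21, 0.38 and 0.16 in the KK cows, -0.06 to 0.59 with a median of 0.35 in KA, and -0.62 to 0.56 with a median of 0.19 in AA. Its KA minus AA difference was 0.24 (SE 0.10; limma adjusted p = 0.198), and 0.17 without AA 2 and AA 9, and KK minus AA was 0.07 and 0.01. NR1H3 read 0.10, 0.01, -0.19 and 0.09 in KK, -0.01 to 0.47 with a median of 0.12 in KA, and -0.65 to 0.16 with a median of 0.07 in AA, where AA 2 (-0.59) and AA 9 (-0.65) were below all others. KA minus AA was 0.24 (SE 0.09; limma adjusted p = 0.166) on this probe set and -0.17 on the other probe set of NR1H3, and the pair correlated at r = -0.18 over the 26 arrays, so the 2 probe sets of NR1H3 gave opposite directions. Without AA 2 and AA 9 the differences were 0.12 and -0.11. On the first of them the KA cows exceeded the AA cows by 0.03 in the lower range of array numbers and by 0.45 in the upper, and the differences were -0.06 without AA 2 and 0.26 without AA 9.

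PPARG read 0.26, 0.16, 0.04 and -0.48 in the KK cows, -0.34 to 0.41 with a median of 0.16 in KA, and -1.02 (AA 9) to 0.19 in AA with AA 2 at -0.75. Once those 2 arrays were left out the 3 means were 0.00 ± 0.22 (AA, n = 9), 0.08 ± 0.23 (KA, n = 13) and -0.00 ± 0.33 (KK, n = 4), and KK minus AA was -0.01 (95% interval -0.30 to 0.28). RXRA, the shared partner, read 0.10, 0.18, 0.48 and -0.22 in KK, -0.22 to 0.84 in KA and -0.34 to 0.66 in AA. Its KK minus AA difference was -0.00 (95% interval -0.37 to 0.36), and AA 2 (-0.29) and AA 9 (0.29) lay within the range of the other cows. Its KA minus AA difference was 0.16, and -0.07 with the range of array numbers as a block.

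PPARGC1A, the coactivator, varied widely within each genotype, and its 4 probe sets moved together with r of 0.68 to 0.83 over the 26 arrays. On the leading one the KK cows read 0.85, 0.22, -0.11 and -0.29, the KA cows -0.61 to 0.78 with a median of 0.04, and the AA cows -0.96 to 0.38 with a median of 0.03. KK minus AA was 0.27 (SE 0.24) and KA minus AA was 0.19, and without AA 2 and AA 9 they were 0.11 (SE 0.21) and 0.03. The second probe set, of the dim class, had means of -0.48 in AA (-0.30 without the pair), 0.05 in KA and 0.08 in KK. Those of the third were -0.35 in AA (-0.05 without the pair), 0.09 in KA and 0.16 in KK. The fourth probe set of PPARGC1A, of the dim class, gave the smallest p of all 23 for any genotype difference. It read -0.67 to 0.07 with a median of -0.20 in the 11 AA cows and -0.34 to 1.00 with a median of 0.32 in the 13 KA cows, of which 12 were above the AA mean. KA minus AA was 0.50 (SE 0.13; limma adjusted p = 0.126), ranked 146 among 24016 probe sets, and 0.42 (SE 0.14; limma adjusted p = 0.296) without AA 2 and AA 9. It was 0.60 within numbers 29 to 42 (2 KA against 8 AA cows) and 0.59 within 43 to 56 (11 against 3). In the lower range KA 1 read 1.00 and KA 2 read -0.17, among the AA cows, so the difference there rested on KA 1.

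**Figure D1:**
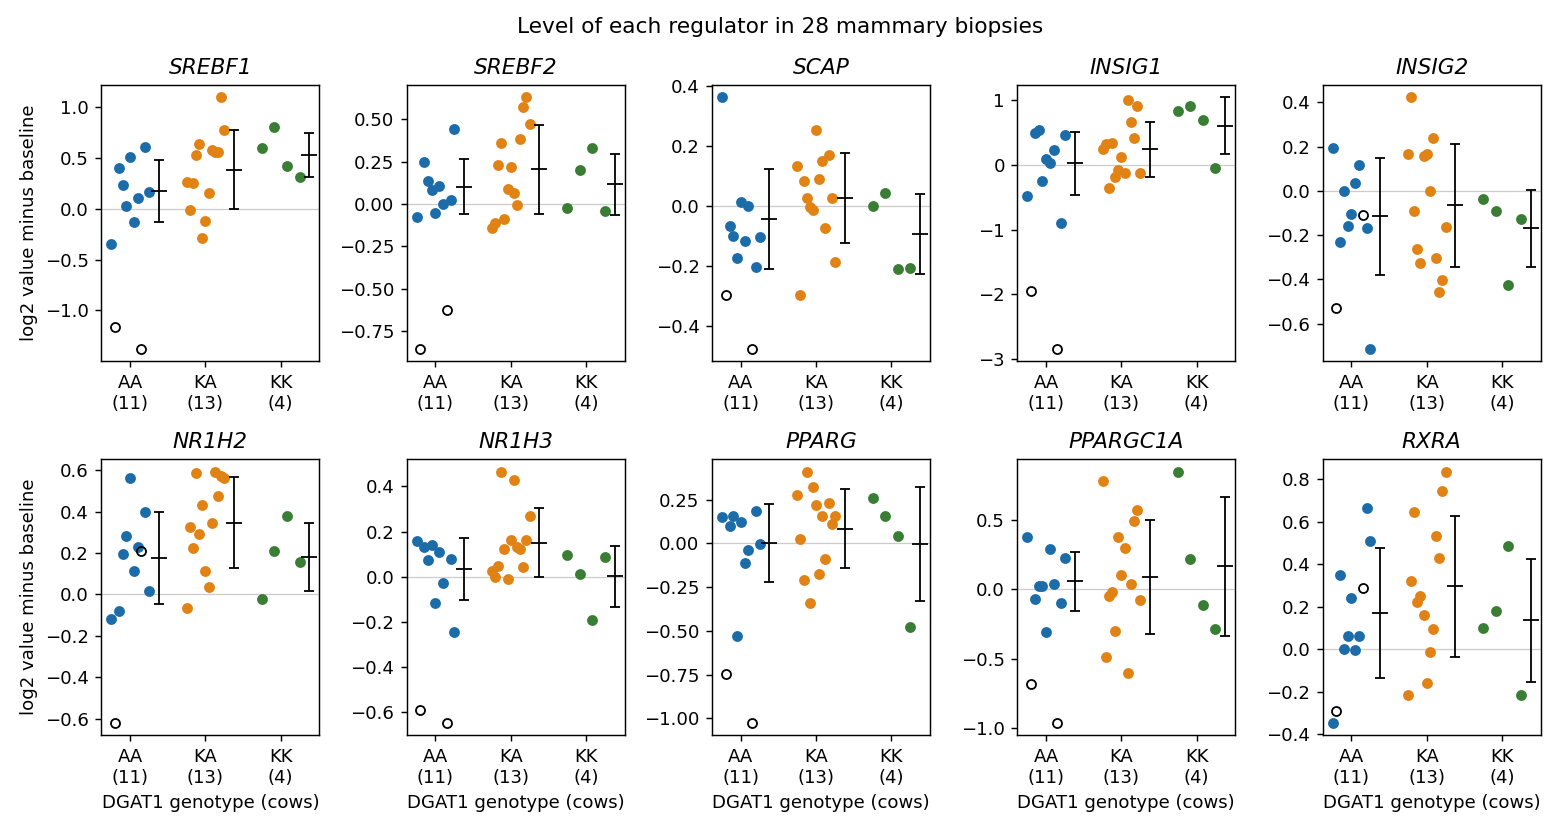
Log2 value minus baseline (y axis) of the leading probe set of each regulator in every cow, by DGAT1 genotype (x axis, number of cows in brackets). Filled points are cows, open black circles are AA 2 and AA 9, and the bars beside each group are the mean and SD without those 2 arrays; the y scale differs between panels. AA 2 and AA 9 lie far below the other cows for SREBF1, SREBF2, INSIG1, NR1H3 and PPARG, and the genotypes overlap in every panel.

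Of the 23 probe sets 0 passed an adjusted p of 0.05 in limma in any genotype comparison, beside 0% of all 24016 in each. At an unadjusted p under 0.05, 5 of the 23 had a slope per K allele, all upward, beside 9.16% of all probe sets (4.68% upward). These were INSIG1 (slope 0.54, SE 0.20), the 3 concordant SREBF1 probe sets (0.35, 0.40 and 0.44) and the fourth of PPARGC1A (0.23). Without AA 2 and AA 9 the count was 2 of 23, beside 3.26%: INSIG1 with 0.27 (SE 0.12) and the second probe set of SREBF1 with 0.21 (SE 0.09). For KK minus AA the count was 3 of 23, all higher in KK, beside 3.51% (2% higher), and 2 of 23, beside 2.76%, without the pair. For KA minus AA it was 11 of 23 (10 higher and 1 lower in KA), beside 21.8% (10.8% higher and 11.1% lower), and 5 of 23, beside 9.50%, without it. The median KA minus AA difference over the 23 was 0.24, beside 0.02 over all probe sets, and it was 0.12, beside 0.01, without the pair. The 23 probe sets read only 10 genes, so they are not independent readings. Array numbers 43 to 56 held 11 of the 13 KA cows and 3 of the 11 AA cows. What array number contributes to these KA minus AA values was not tested. KK minus KA gave 0 of 23 in limma at an unadjusted p under 0.05, beside 2.84%, and 1 of 23, beside 6.08%, without the pair.

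**Figure D2:**
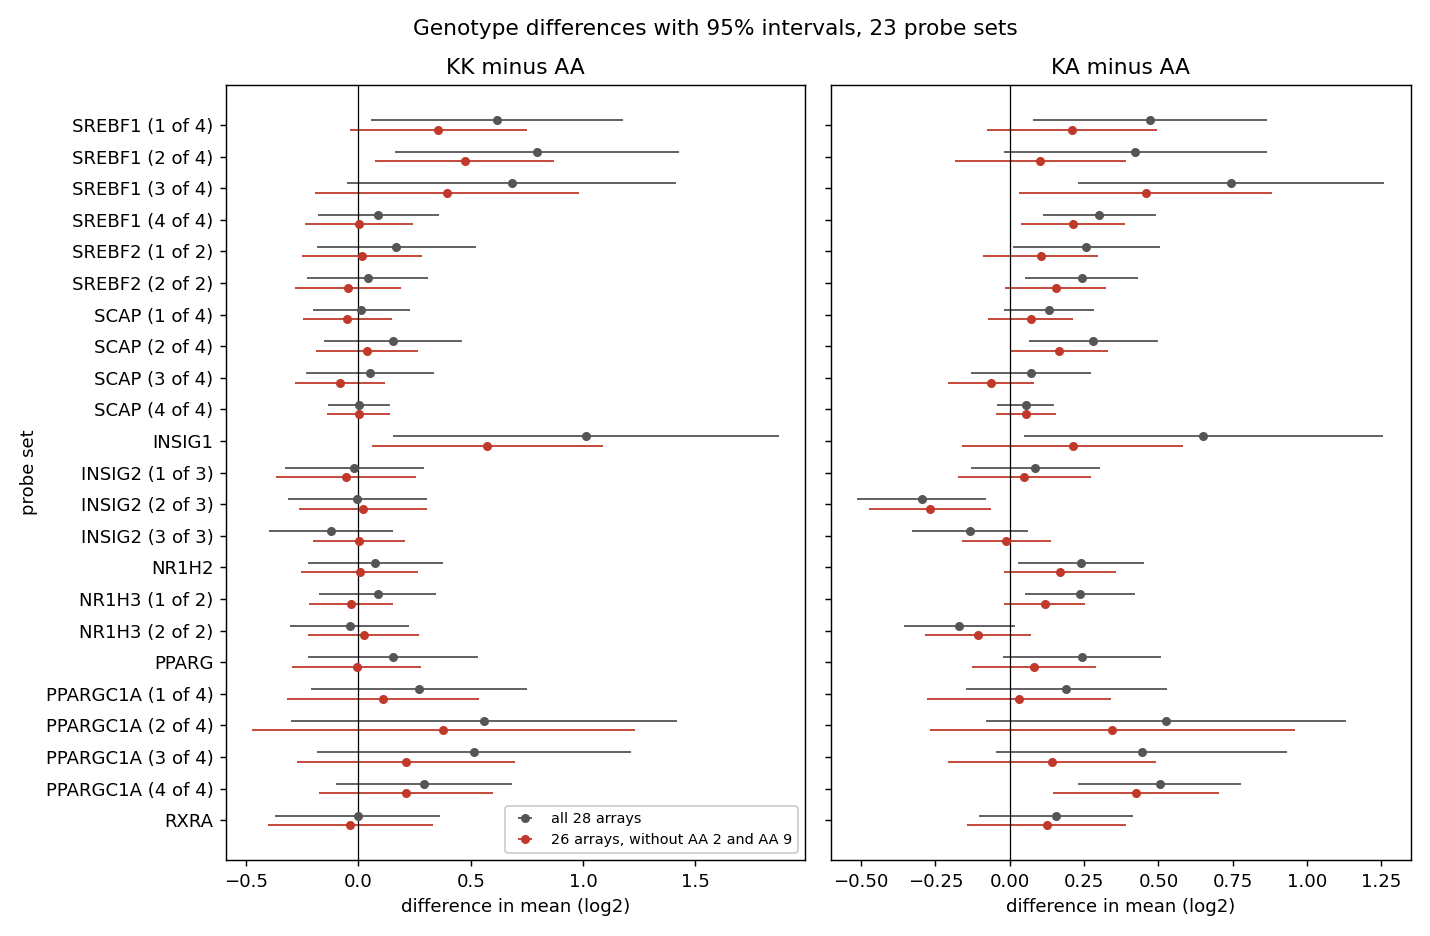
Difference in mean log2 value (x axis) between KK and AA cows (left) and KA and AA cows (right) for each of the 23 probe sets (y axis; numbered within a gene, the leading one first). Points are limma estimates and lines their 95% intervals, in grey over all 28 arrays and in red over the 26 without AA 2 and AA 9. The INSIG1 difference between KK and AA moves from 1.01 to 0.57 when these 2 arrays are left out, and that of the leading SREBF1 probe set from 0.62 to 0.36.

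Many of the regulators were low on AA 2 and AA 9. Both arrays were below all 26 others on 12 probe sets: 3 of the 4 of SREBF1, 3 of the 4 of PPARGC1A, 2 of the 4 of SCAP, 1 of the 2 of SREBF2, 1 of the 2 of NR1H3, and those of INSIG1 and PPARG. The same count was not made over all 24016 probe sets, so it does not set the regulators apart from the rest. On AA 2 and AA 9, 4807 and 3699 of all probe sets lay more than 2-fold from the baseline, against 62 to 449 on the other 26 arrays. NR1H2 was below all others on AA 2 (-0.62) but not on AA 9 (0.21). Of the 4 lists of known target genes of the network 3 were low on both arrays, and 1 was high on AA 9. The 14 cholesterol synthesis genes averaged -0.83 and -1.07 on AA 2 and AA 9, against -0.52 to 0.25 in the other AA cows, the 12 fatty acid synthesis genes -1.24 and -1.13, against -0.09 to 0.26, and the 9 targets of PPARG -1.26 and -1.75, against -0.17 to -0.04. The 5 measured LXR targets averaged 0.40 and 0.97, against -0.31 to 0.36 in the other AA cows. The KA cows reached 0.51 and the KK cows 0.41 on this list, so AA 2 lay within the range of the other cows. The fibroblast and milk secreting markers given above stood apart on the same 2 arrays, and their part in these values was not tested.

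Over all 28 arrays nearly all regulators appeared to move together, with a median r of 0.47 over the 45 pairs and 39 of them positive. Over the 26 arrays the median r was 0.09, with 30 pairs positive and 15 negative. The 26 arrays are used from here on, since AA 2 and AA 9 form a cluster of their own. A pair was called when limma's fits of all probe sets on either gene both gave the other an adjusted p under 0.05. By that rule 3 of the 45 pairs were called. In a permutation test with Benjamini-Hochberg adjustment over the 45 pairs, 5 passed 0.05, and 11 had an unadjusted permutation p under 0.05.

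SREBF2 and RXRA had r = 0.65 (rho = 0.59, permutation p = 0.00034 and 0.00233, adjusted over the pairs 0.00765 for r; limma adjusted p = 0.015 in both fits). NR1H2 and RXRA had r = 0.60 (rho = 0.60, permutation p = 0.00114 and 0.00147, adjusted 0.0134 for r). SREBF1 and RXRA also had r = 0.60 and passed the permutation test, while limma's adjusted p was 0.023 in the fit on RXRA and 0.162 in the fit on SREBF1. In the fit on RXRA, 4.67% of all probe sets were called, in that on SREBF2 2.17%, in that on NR1H2 1.89%, in that on INSIG2 1.32% and in that on SREBF1 0.0416%.

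INSIG2 ran against the same genes. Its r was -0.69 with SREBF2 (rho = -0.63, permutation p = 0.00012 and 0.00082, adjusted 0.0054 for r), the strongest of the 45, -0.57 with RXRA and -0.51 with SREBF1. Over all 28 arrays these were -0.25 (limma adjusted p = 0.276, so the call was lost), -0.42 and -0.14. It was close to 0 with INSIG1, at -0.16. The relation of SREBF2 with INSIG2 rested on their leading probe sets: over the 6 combinations of their probe sets r ran from -0.69 to -0.14. The other SREBF2 probe set had r = 0.23 with RXRA.

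Array number moved with SREBF2, RXRA and NR1H2, and a control of RNA length with SREBF2 and INSIG2. Over the 26 arrays, array number had r = 0.57 with SREBF2, 0.57 with RXRA and 0.55 with NR1H2 (permutation p = 0.00248, 0.00268 and 0.00426, adjusted over 30 such relations 0.0268, 0.0268 and 0.0315). With INSIG2, array number had r = -0.40 (permutation p = 0.0447, adjusted 0.224). The 3′ minus 5′ difference of the GAPDH control had r = 0.52 with SREBF2 and -0.60 with INSIG2, but 0.10 with RXRA and -0.20 with NR1H2. For INSIG2 that relation rested on AA 11 and KA 2, without which it was -0.26. The same difference of the actin control had r = -0.12 with SREBF2 and 0.17 with INSIG2. With the means of the lower and upper array numbers removed, r was 0.54 for SREBF2 with RXRA, 0.50 for NR1H2 with RXRA and -0.65 for SREBF2 with INSIG2, and none of the 3 was then called. Within numbers 29 to 42 the 3 values were 0.59, 0.54 and -0.76, and within 43 to 56 they were 0.52, 0.47 and -0.60, over 13 arrays each. What array number and the GAPDH difference contribute was not tested beyond these values.

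SREBF1 and INSIG1 had r = 0.42 over the 26 arrays (rho = 0.40, permutation p = 0.0316, adjusted over the pairs 0.142), against 0.79 over all 28. In the plot of INSIG1 against SREBF1, AA 10 lies off the rest, with the highest SREBF1 of the AA cows (0.61) and the lowest INSIG1 of the 26 (-0.89). Without AA 10 and KA 9, the arrays farthest from the INSIG1 median, r was 0.57, and without KA 12 and AA 1, those farthest from the SREBF1 median, it was 0.25. Within numbers 29 to 42 r was 0.79 and within 43 to 56 it was 0.27. SREBF2 and INSIG1 had r = 0.34. For PPARG the highest r among the members was 0.35, with SCAP, and its coactivator PPARGC1A stood at 0.34.

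**Figure D3:**
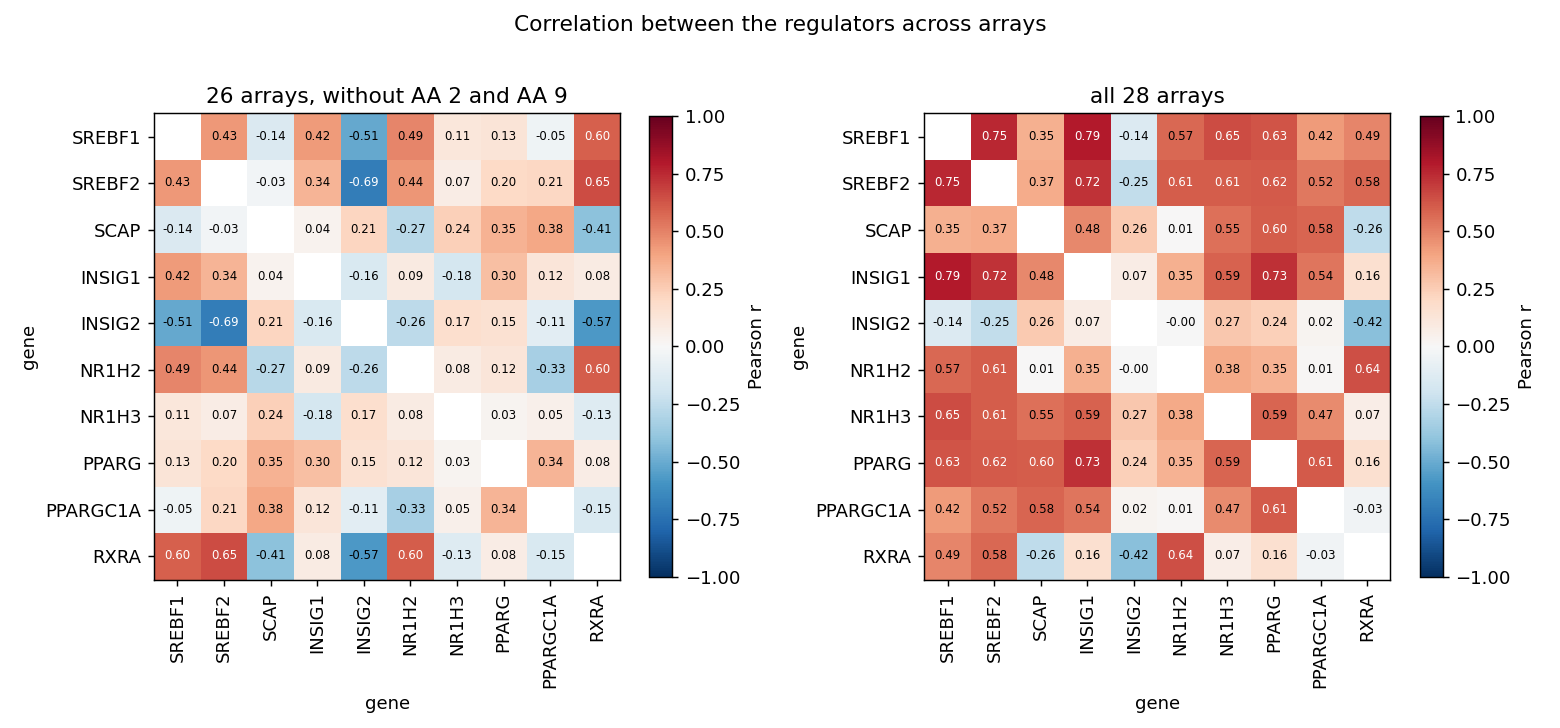
Pearson r between the leading probe sets of the 10 regulators (both axes) over the 26 arrays without AA 2 and AA 9 (left) and over all 28 arrays (right), from -1 in blue to 1 in red. The right panel is almost wholly positive, with a median of 0.47, and the left one has a median of 0.09 with SREBF2, NR1H2, SREBF1 and RXRA positive with each other and INSIG2 negative with them.

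The genes outside the set that followed each regulator most closely differed in kind. INSIG1 is itself known as a target of the SREBP proteins, and its 3 nearest genes of 9145 were HMGCS1 (r = 0.90), MSMO1 (0.78) and CYP51A1 (0.74), all enzymes of cholesterol synthesis. HMGCS1 makes the precursor HMG-CoA, and CYP51A1 and MSMO1 remove methyl groups from the sterol ring. In limma's fit of all probe sets on INSIG1, 5 of 24015 were called (0.0208%). They were the 2 probe sets of HMGCS1 (r = 0.90 and 0.80), those of MSMO1 and CYP51A1, and a probe set to which the annotation gave no single symbol (r = 0.74).

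The HMGCS1 values show the pattern cow by cow. The KK cows read 0.69, 0.76, 0.43 and -0.66, and KK 4 was the lowest of the 4 for INSIG1 as well. The 13 KA cows ran from -0.69 to 0.80 with a median of 0.02, and the 9 AA cows other than AA 2 and AA 9 from -1.50 (AA 10) to 0.48 with a median of -0.13. AA 10 was the lowest of the 26 for HMGCS1, as for INSIG1. The r of INSIG1 with HMGCS1 was 0.93 within numbers 29 to 42 and 0.88 within 43 to 56, and 0.93 within the 9 AA and 0.83 within the 13 KA cows. Without AA 10 and KA 9 it was 0.86.

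PPARG was nearest to FABP4 (r = 0.83, limma adjusted p = 0.00161), the fatty acid binding protein that is a known PPARG target, then RFLNA (0.73) and FOXO4 (0.72). FABP4 read 0.29, 0.25, -0.04 and -0.64 in the KK cows, in the same order as PPARG. Its second probe set had r = 0.77 with PPARG. Within the 2 ranges of array numbers the r was 0.85 and 0.89. In the fit on PPARG 0.187% of probe sets were called.

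**Figure D4:**
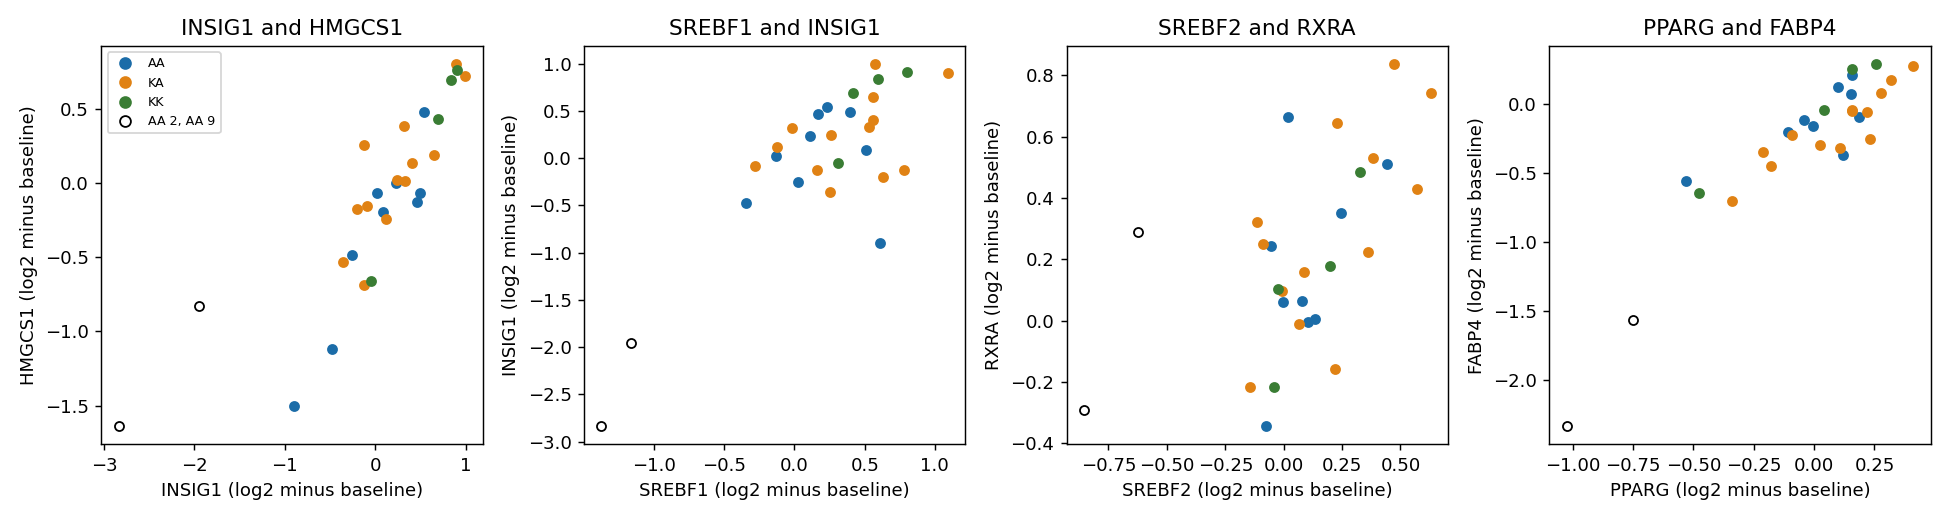
Log2 values minus baseline of 4 pairs of genes in the 28 cows; each point is a cow, coloured by genotype, and open circles are AA 2 and AA 9. INSIG1 with HMGCS1 (r = 0.90) and PPARG with FABP4 (r = 0.83) lie along a line in the 26 filled points, while SREBF1 with INSIG1 (r = 0.42) and SREBF2 with RXRA (r = 0.65) scatter more widely.

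The nearest genes of the other regulators follow. SREBF1 was nearest to AP1M1 (r = 0.82), an adaptor of vesicle transport, CITED4 (0.78), a transcriptional coregulator, and MTMR10 (0.71). SREBF2 was nearest to MACROD1 (0.85), LHPP (0.84) and WBP2 (0.84), NR1H2 and RXRA both to NUMA1 (0.83 and 0.88), a protein of the mitotic spindle. NR1H2 was then followed by RAB7A and AP2A1, and RXRA by FURIN and NFE2L1. INSIG2 was nearest to HMGB1 (0.79), ZNF207 and ACOT13, NR1H3 to SLC35A2 (0.76), TTC4 and NPBWR1, SCAP to ADRA1B (0.81), RGSL1 and IGSF23, and PPARGC1A to HABP2 (0.92), SRA1, whose transcript is a steroid receptor coactivator, and TBKBP1. These genes were picked for their r, which is therefore a description. Several have a second probe set that did not follow: for HMGB1 it had r = 0.21 with INSIG2, for SLC35A2 0.05 with NR1H3, for LHPP -0.26 with SREBF2 and for MTMR10 -0.60 with SREBF1, against 0.71 for the probe set of MTMR10 named above.

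The known targets of the network were set against the regulators too. Of 22 listed cholesterol synthesis and uptake genes 14 were measured. INSIG1 had a positive r with 13 of the 14, with a median of 0.66 beside 0.00 over all probe sets, and 3 were called. SREBF2, the regulator of these genes, had a median r of 0.17 with them and SREBF1 of 0.07, each with 0 called in limma. The medians of PPARGC1A (0.34, with 2 called), PPARG (0.28) and SCAP (0.20) were higher than that of SREBF2. The remaining members lay between -0.16 (RXRA) and -0.00 (NR1H3). Of the 13 listed fatty acid synthesis genes 12 were measured, and SREBF1 had a median r of 0.09 with them and 0 called in limma: ACSS2 stood at 0.51, FASN at 0.34, SCD at 0.32 and GPAM at 0.29. SREBF2 had a median r of 0.35 with the same genes, with FASN at 0.56 and SCD at 0.51, and 0 called. The median of PPARGC1A was 0.39, with 1 called positive and 3 called negative, and the other members lay between -0.18 (INSIG2) and 0.25 (PPARG). For the 9 measured of 10 PPARG targets the median r was 0.31 with PPARG, with FABP4 called, and 0.49 with PPARGC1A. The 3 PPARG targets called with PPARGC1A were LPL (0.67), CD36 (0.68) and PCK1 (0.55), named after their values were seen. In the fit on PPARGC1A 14.8% of all probe sets were called. LXR targets were measured with 5 of 10 genes, and 0 were called in limma with NR1H2 or NR1H3 (0.217% of all probe sets were called with NR1H3), with median r of 0.13 and -0.24. With PPARGC1A 2 of them were called and negative: MYLIP, which degrades the LDL receptor, at -0.61 and APOE at -0.57. Markers of other cell types were called negative in the same fit: 5 of the 9 T and B cell markers, 3 of the 7 myeloid and 3 of the 9 fibroblast and matrix markers, with CSF1R of macrophages at -0.66, CD3E of T cells at -0.64, and CD68 and DCN at -0.60 each. The median r of PPARGC1A was -0.48 with the T and B cell, -0.15 with the myeloid and -0.29 with the fibroblast markers, and their part in its r with the targets was not tested. With SREBF1 and with INSIG1, 0 markers of the 7 cell type lists were called in limma, and with PPARG only FABP4, which also stands in the adipocyte list. PPARG had a median r of -0.47 with the myeloid and -0.41 with the T and B cell markers.

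**Figure D5:**
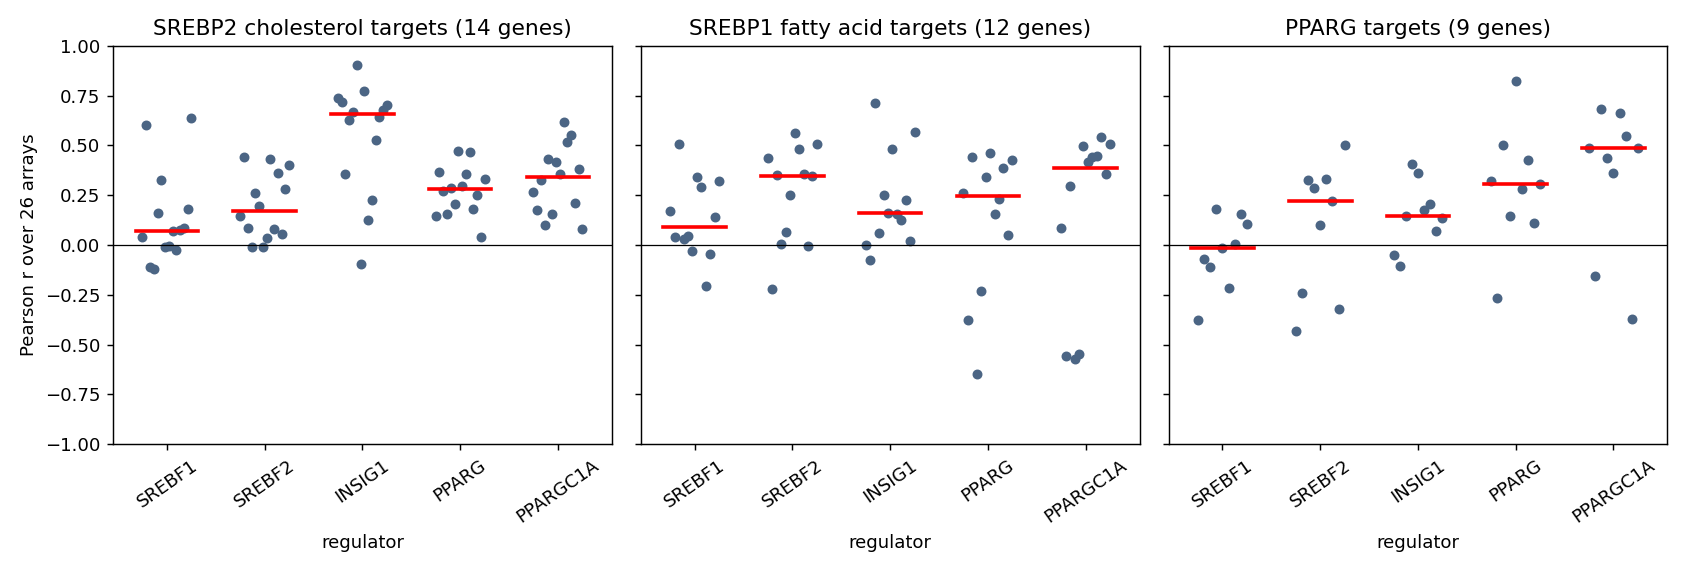
Pearson r over the 26 arrays (y axis) of 5 regulators (x axis) with each measured gene of 3 lists of known targets; points are genes and red lines medians. INSIG1 has a median of 0.66 with the cholesterol genes, and SREBF1 has a median of 0.09 with the fatty acid genes.

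By genotype, 0 genes of these lists passed the adjusted p of 0.05 in limma. Of the 14 cholesterol genes all had a positive slope per K allele, with a median of 0.22 beside 0.01 over all probe sets, and 8 had an unadjusted p under 0.05, beside 9.16%. HMGCS1 had the smallest, with a slope of 0.44 (SE 0.15; limma adjusted p = 0.526). Without AA 2 and AA 9 the median slope was 0.13, 13 of 14 were positive and 1 had an unadjusted p under 0.05 (HMGCS1, 0.34, SE 0.14), beside 3.26%. The 12 fatty acid genes had a median slope of 0.17 over all arrays and 0.03 without the pair, with ACSS2, which activates acetate, at 0.60 and 0.21. The 9 PPARG targets had a median slope of 0.23 and 0.02, and the 5 LXR targets 0.02 and 0.03. Of the 12 measured genes that process or assist the SREBP proteins, 9 had a positive slope and 3 an unadjusted p under 0.05, of which 2 were upward and 1 downward, and without the pair 11 were positive and 1 had such a p. Of the 9 other lipid regulators measured 8 had a positive slope (median 0.05) over all arrays, but 4 without the pair (median -0.0062), with 0 at an unadjusted p under 0.05 in limma in either. The 9 fibroblast and matrix markers had a median slope of -0.38 over all arrays, with 8 downward at an unadjusted p under 0.05, and of -0.18, with 2, without the pair, and the 8 markers of myoepithelium and smooth muscle -0.19 and -0.14. Their part in the slopes of INSIG1, SREBF1 and the cholesterol genes was not tested. The 12 milk secreting markers had a median slope of 0.11 and 0.01, the 9 adipocyte markers 0.05 and 0.02, the 7 endothelial markers 0.08 and 0.04, the 7 myeloid markers 0.00 and 0.01 and the 9 T and B cell markers -0.04 and 0.04.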

How the data were processed

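Tissue of 28 cows was hybridised to 1 Affymetrix Bovine Genome Array each. The deposited values are log2 values from which the authors had subtracted 1 baseline per probe set, read from the values themselves; the baseline is not the median of these arrays and where it came from was not stated. RMA and GCRMA stand in the submitters' processing notes, without their roles, and Bioconductor 2.7 and R 2.13 are named per the labels' protocols. Groups came from the genotype label. From the deposited log2 values, 112 control probe sets were left out and 24016 tested in limma 3.58.1 (R 4.3.3; lmFit, eBayes, Benjamini-Hochberg, threshold 0.05) on genotype means and on a slope per K allele. The scripts were tested on simulated data. Permutation tests were two-sided, exact where a group held under 10 arrays, otherwise with 100000 resamples. No depth applies to arrays, and their number limits the precision. Symbols come from the platform annotation, 13263 of 13292 matched to the RefSeq gene table: 13292 probe sets had 1 symbol, 86 several and 10638 none. Members and gene lists were chosen with earlier results of these data known. Probe sets of a gene are numbered with the leading one first and the others by identifier. Named are all member probe sets, up to 4 genes of a list with the smallest slope p, and the 3 genes nearest to each member by r. List genes named for their r with a regulator were chosen after their values were seen. No label says what the array numbers mark. Promoter sequences were not used here.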

Additional observations from a re-analysis of the deposited data

Results flagged for a closer look

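On the third of the INSIG2 probe sets KK 4 read -0.308, and the other 3 KK cows lay between -0.08 and -0.03. The gap to the nearest of them was 0.834 of the range of the group, above the critical value for 4 samples. It was the 1 such value among 23 groups of 4 tested, and chance gives about 1 in 20.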

How the results depend on the processing

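The count of probe sets past the threshold was 0 for KA minus AA and became 12 at an adjusted p under 0.10, 47 after quantile normalization, 104 with array weights and 1 without AA 2 and AA 9 with the range of array numbers as a block, an alternative chosen after seeing the data. For KK minus KA array weights gave 3. Leaving out KK 1, KK 2, KK 3, KK 4, AA 2 or AA 9, each in turn, gave 0 to 5 for KA minus AA (5 without KK 3) and 0 for the other contrasts. No other cow was left out in turn. Against 3 pairs called, 23 were called over all 28 arrays, 1 when probe sets of a gene were averaged, and 0 after removing the means of the 2 ranges of array numbers, after quantile normalization, without the 2 farthest arrays and within either range; leaving out single KK cows gave 2 to 3. Of 470 alternative values of the members, 434 kept their direction and side of the threshold and 36 changed sign, 0 of them for SREBF1, INSIG1 or PPARGC1A. Part of the 434 could not change sign. Robust variances, leaving out dim probe sets and fitting only the groups compared keep the estimates, and leaving out a KK cow keeps KA minus AA. Since 0 members passed the threshold in the main fits, the tally is not a measure of robustness. SCAP KK minus AA became -0.036 (quantile), -0.0048 (weights), -0.0499 (without AA 2 and AA 9, with and without the block), -0.00499 (block), and -0.019, -0.033, -0.0067 and -0.025 without KK 1, KK 2, AA 2 or AA 9. Its slope became -0.0051 and -0.0078 without the pair, the second with the block. INSIG2 gave 0.067 for KK minus AA without KK 3, -0.11 for KA minus AA as a mean of probe sets, and slopes of -0.025 (quantile), -0.012 (weights), -0.012 (without the pair), -0.010 (without AA 2), -0.046 (mean of probe sets) and -0.0052 (without the pair, block). NR1H2 KK minus AA was -0.011 with weights. NR1H3 KK minus AA was -0.0089 (weights), -0.033 (without the pair) and -0.030 (with the block too), and that of PPARG -0.030, -0.0077 and -0.0049. RXRA KK minus AA was 0.104 (block), 0.0081, 0.114 and 0.011 without KK 1, KK 4 or AA 9, and 0.055 without the pair with the block; its KA minus AA was -0.071 (block) and -0.129 (also without the pair), its slope -0.012 (weights) and -0.000704 (without the pair, block). SREBF2 KA minus AA was -0.074 without the pair with the block. Leaving out a KK cow, AA 2 or AA 9 in turn moved KK minus AA between -0.033 and 0.051 for SCAP and -0.062 and 0.067 for INSIG2. For RXRA it moved between -0.120 and 0.114, and the INSIG2 slope between -0.010 and 0.051. The cause of these changes was not tested. No paired analysis was possible because replicate numbers were given in accession order and pair no cows.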
